A study of Homo sapiens with 14 samples.

Results

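The 10 genes described here belong to the chemokine, tumor necrosis factor (TNF) receptor and NF-kB feedback systems and were followed through long-term culture (LTC) of colorectal cancer colonies. They were chosen by symbol and with earlier results of these data known. They are 10 of the 36601 genes in the single-cell tables and of the 60624 genes in the bulk tables. All 10 were found in both. The members were the chemokines CXCL1, CXCL8 and CCL20, the TNF receptors TNFRSF4, TNFRSF12A and TNFRSF21, and the NF-kB response genes TNFAIP2, TNFAIP3, NFKBIA and BIRC3. The cells were SW620, a human colorectal cancer line from a metastasis, and SW620-TET2CD, the same line made to express the catalytic domain of TET2, an enzyme that oxidizes methylated cytosine in DNA. The cultures labelled SW620 are the control of that comparison, which the study describes as carrying an empty FLAG vector. SW480, used once, is a line from the primary tumor of the patient from whom SW620 came. Single-cell RNA-seq was done on both SW620 lines on days 6, 9, 12 and 15, with 1 library for each line and day and 8 in all. Bulk RNA-seq covered SW480 and SW620 on day 6 as whole cultures, and, on day 15, SW620 and SW620-TET2CD cells found inside colonies and outside them, with 1 library each and 6 in all. Cells outside were those that passed a strainer after accutase, and cells inside were those of the retained colonies, released with trypsin. No condition has a second library, so the p-values below measure the spread between the libraries of different days or lines and not between repeat cultures. Each line is a single transduced population as far as the labels tell.

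Chemokines are small secreted proteins that bind G protein-coupled receptors and draw leukocytes into tissue. CXCL1 and CXCL8 attract neutrophils, CCL20 attracts cells bearing CCR6, and epithelial cells of the gut make all of them in response to TNF, interleukin-1 or bacterial products. These signals, and many TNF receptors, act through NF-kB, a family of transcription factors held in the cytoplasm by inhibitors. NFKBIA encodes the inhibitor IkBa, TNFAIP3 the ubiquitin-editing enzyme A20, and BIRC3 the ubiquitin ligase cIAP2, and these genes are themselves induced by NF-kB, which closes a feedback loop.

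The single-cell libraries held 5790 to 10713 barcodes, of which 3894 to 8154 per library passed the limits of 200 to 4500 genes, 1000 to 20000 unique molecular identifiers (UMIs, each 1 captured transcript) and at most 10% mitochondrial UMIs. Kept cells gave 48186195 to 74185723 UMIs per library, and the members' levels are given as CPM, the share of these UMIs scaled to 1 common library total. Pairs of libraries shared 1 to 23 kept barcodes, at most 0.334% of the smaller one. The bulk libraries held 16470176 to 25840563 expected counts. TET2 itself was at 2.11 to 3.90 CPM in SW620 and 40.2 to 106.6 CPM in SW620-TET2CD, so the labels and the transgene were not at odds. The 7 epithelial markers summed to 9413 to 14040 CPM. The 10 leukocyte markers summed to 7.53 to 17.5 CPM on days 6 and 9 and to 24.1 to 57.9 CPM on days 12 and 15. CD68, a lysosomal protein, was the highest of them at up to 36.9 CPM, 8 of the 10 stayed under 1 CPM in every library, and 2 were at 0 throughout. The 9 fibroblast and endothelial markers summed to 17.4 to 29.1 CPM on the early days and 9.60 to 13.5 CPM on the late days, with LUM the highest at up to 27.2 CPM. These sums move with time, and their part in the differences between early and late days was not tested.

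The promoters of 8 of the 10 members were found in the RefSeq table of GRCh38.p14, and those of TNFRSF4 and TNFRSF12A were not looked for elsewhere. All the promoters printed here but that of TNFAIP2 hold letters bound by NF-kB in other settings. Those of BIRC3, with such letters, and of TNFRSF21, with none in its window, are not printed. Each line gives the 150 bases before the start of transcription, 5′ to 3′, on the gene's own strand. For CXCL8, CCL20, TNFAIP2 and TNFAIP3 that start lies inside the wider gene span of GENCODE given further on. Capitals mark matches, on either strand, to the kappaB consensus of 10 letters or to GGAATTTCC, a RelA site of 9 letters chosen after the CXCL8 promoter had been seen.
CXCL1, chr4:73869243-73869392, plus strand: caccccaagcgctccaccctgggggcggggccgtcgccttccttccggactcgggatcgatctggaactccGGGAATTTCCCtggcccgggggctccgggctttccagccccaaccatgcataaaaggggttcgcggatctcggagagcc
CXCL8, chr4:73740419-73740568, plus strand: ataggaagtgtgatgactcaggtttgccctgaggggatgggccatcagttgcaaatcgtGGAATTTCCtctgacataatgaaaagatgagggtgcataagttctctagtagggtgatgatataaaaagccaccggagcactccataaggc
CCL20, chr2:227813692-227813841, plus strand: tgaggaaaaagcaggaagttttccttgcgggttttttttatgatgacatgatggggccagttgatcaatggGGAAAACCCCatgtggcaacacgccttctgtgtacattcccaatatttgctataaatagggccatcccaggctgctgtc
TNFAIP2, chr14:103123311-103123460, plus strand: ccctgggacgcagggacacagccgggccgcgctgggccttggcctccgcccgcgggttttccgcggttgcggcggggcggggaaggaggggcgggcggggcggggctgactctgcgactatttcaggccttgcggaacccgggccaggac
TNFAIP3, chr6:137867109-137867258, plus strand: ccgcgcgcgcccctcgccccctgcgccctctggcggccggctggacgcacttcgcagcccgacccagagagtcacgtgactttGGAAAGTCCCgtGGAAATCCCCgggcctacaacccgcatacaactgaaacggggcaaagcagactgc
NFKBIA, chr14:35404750-35404899, minus strand: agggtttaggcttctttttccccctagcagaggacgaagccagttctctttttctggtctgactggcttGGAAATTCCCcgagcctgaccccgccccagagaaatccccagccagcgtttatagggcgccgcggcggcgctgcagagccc
Over the full window of 300 bases, from 250 before to 50 after the start, the kappaB consensus matched in 5 of the 8 members (CXCL1, CCL20, TNFAIP3, NFKBIA and BIRC3) and in 5.72% of 27305 promoters of the same length. GGAATTTCC was in 3 of the 8 (CXCL1, CXCL8 and NFKBIA) and in 0.472% of promoters, and in CXCL1 and NFKBIA it lies within the consensus match. The CXCL8 match was known when this site was chosen, so these shares do not test it. The capitals begin at base -79 in CXCL1, -91 in CXCL8, -79 in CCL20, -67 and -55 in TNFAIP3 and -81 in NFKBIA, counted from the start of transcription. BIRC3 had its matches at -199 and -135. The CXCL8 promoter also holds TGANTCA, the AP-1 element, at -137, where 7.76% of promoters have 1 on either strand. Neither kappaB motif was found in the windows of TNFAIP2 and TNFRSF21, and the TNFAIP2 window is 75.7% G and C against 39.3% in CXCL8. These are matches of letters, and binding was not measured.

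The members differed widely in level. By mean CPM over the 8 libraries, TNFRSF12A led at 111.3 CPM, followed by NFKBIA at 24.3 CPM, and the other 8 lay between 1.91 CPM (CXCL1) and 8.96 CPM (CXCL8). NFKBIA was the steadiest, with a highest library 1.37 times its lowest. TNFAIP2 was the least steady at 19.6 times, ahead of TNFRSF4 at 9.92 times and CCL20 at 9.02 times. CXCL8, TNFRSF4 and TNFRSF21, which had means of 8.10 to 8.96 CPM, had ranges that overlapped and no fixed order. UMI counts behind a value ran from 30 for TNFAIP2 in SW620 on day 15 to 10388 for TNFRSF12A in the same library.

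**Figure D1:**
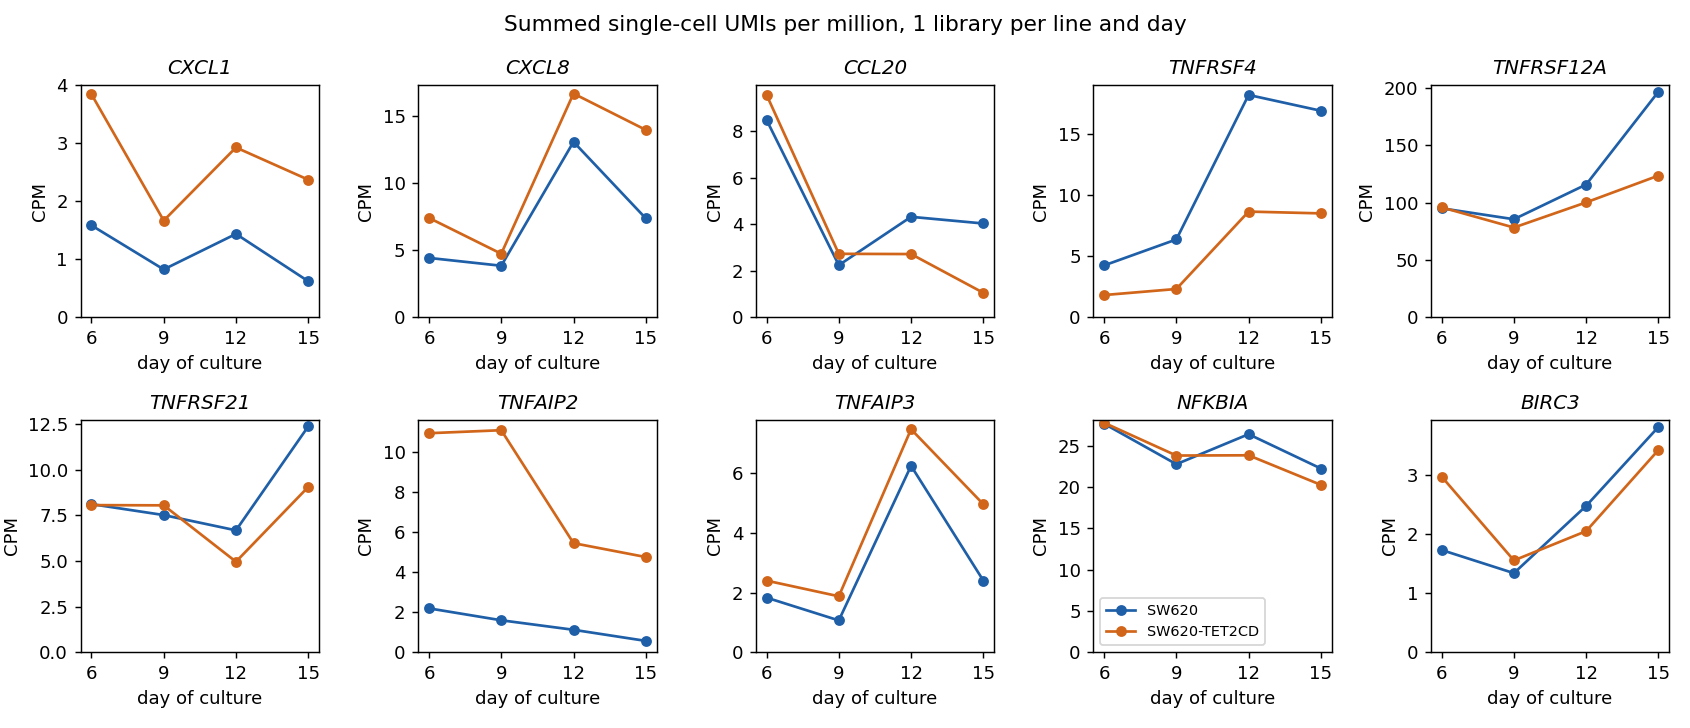
Level of each member in CPM (vertical axis, from 0, with its own scale in each panel) by day of culture (horizontal axis) in SW620 (blue) and SW620-TET2CD (orange), with 1 point per library. TNFAIP2 and CXCL1 lie higher in SW620-TET2CD and TNFRSF4 lower on every day, and CXCL8 and TNFAIP3 peak on day 12 in both lines.

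With time in culture, 4 of the 10 members passed the test between days 12 and 15 and days 6 and 9. CXCL8, TNFRSF4 and TNFAIP3 rose and TNFAIP2 fell. This share is below that of all genes, since 58.0% of the 16526 genes tested passed, 29.4% upward and 28.6% downward. In CPM, the late and early libraries did not overlap for TNFRSF4, TNFRSF12A and TNFAIP3, 3 of 10 members against 52.3% of all genes, and for TNFAIP3 by a gap within counting error. Between the lines, 4 of the 10 passed, against 4.21% of all genes. The members were chosen with earlier results of these data known, so the gap between these shares does not test them as a group. CXCL1, CXCL8 and TNFAIP2 were higher in SW620-TET2CD and TNFRSF4 was lower, where 2.37% and 1.85% of genes were called in these directions. TNFAIP2 and CXCL1 did not overlap between the lines, a separation that 2.49% of genes showed, and for CXCL1 the gap was within counting error. CXCL1, CXCL8, TNFAIP2 and TNFAIP3 were higher in SW620-TET2CD on 4 of 4 days and TNFRSF4 lower on 4 of 4, and 25.9% of all genes kept one direction in this way. All 4 line calls were lost without the day as a block (adjusted p 0.172 to 1.00), with estimates of 1.19 for CXCL1, 0.47 for CXCL8, -1.24 for TNFRSF4 and 2.48 for TNFAIP2. The tests were edgeR's quasi-likelihood test on summed counts with the line or the day as a block, two-sided, with Benjamini-Hochberg adjustment over all genes tested. The time test had 5 residual degrees of freedom and took both lines of a day as separate libraries. It does not account for a shift that the lines share on 1 day, such as the peak of CXCL8 and TNFAIP3 on day 12.

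**Figure D2:**
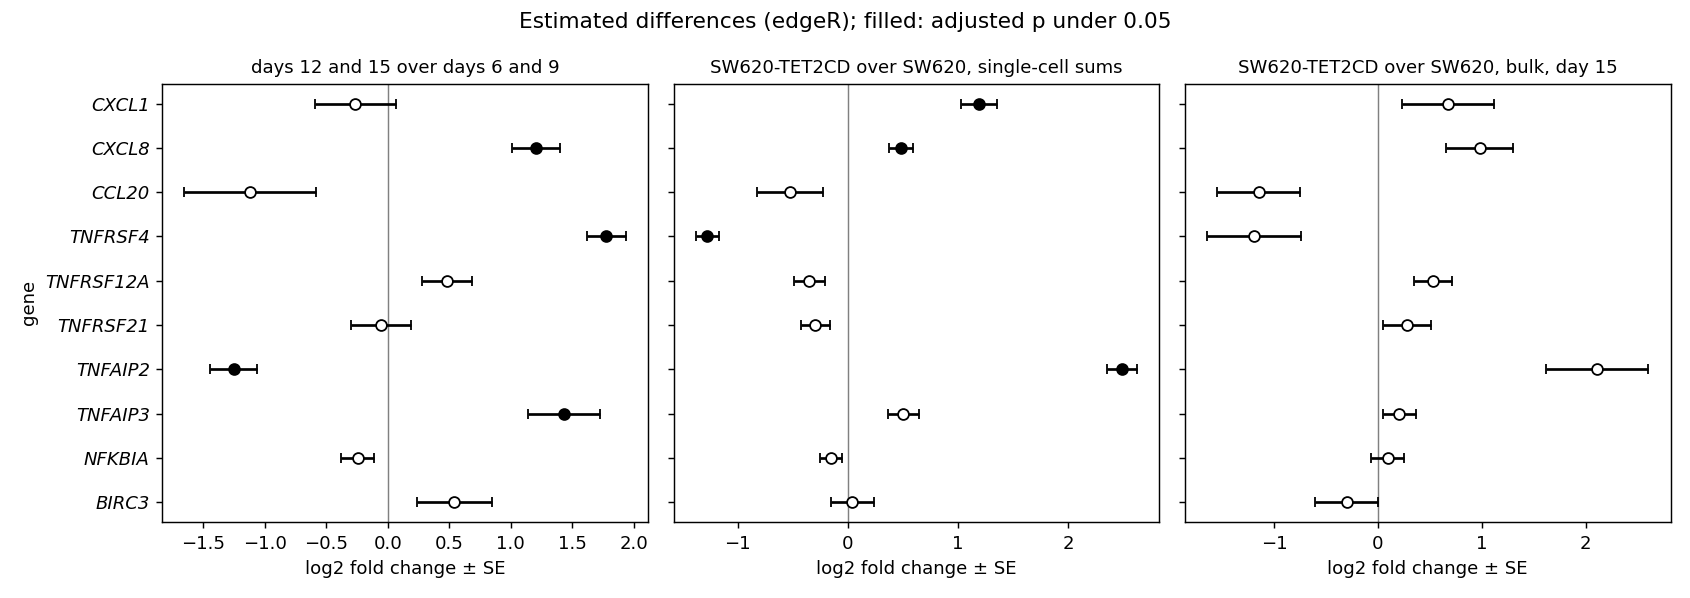
Estimated log2 fold change (horizontal axis, error bars ± 1 SE, own scale in each panel) of each member for late over early days, for SW620-TET2CD over SW620 in summed single cells, and for the same lines in bulk RNA-seq on day 15, with filled points for an adjusted p under 0.05. TNFAIP2 lies farthest to the right in both line comparisons, and no point of the bulk panel is filled.

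Among the chemokines, CXCL8 (chr4:73740519-73743716) changed with time and differed by line. Its level in SW620 was 4.44, 3.86, 13.1 and 7.40 CPM on days 6, 9, 12 and 15, and in SW620-TET2CD it was 7.43, 4.75, 16.7 and 14.0 CPM. The late libraries were higher within each line, on average 2.47 times in SW620 and 2.52 times in SW620-TET2CD, although 1 early library of SW620-TET2CD, of day 6, was slightly above SW620 of day 15. The estimate for late over early days was a log2 fold change of 1.20 ± 0.20 (SE) with an adjusted p of 0.000501. Between the lines the log2 fold change was 0.48 ± 0.11 with an adjusted p of 0.0308. That line call was lost in 7 of 8 fits without 1 library (all but the one without SW620-TET2CD of day 9, adjusted p 0.0476 to 0.156 over the 8) and under each of the 3 other limits on cells (0.0727 to 0.118), while the direction stayed. With the day as a block, leaving out either library of a day removes that day from the line comparison. The 8 line fits without 1 library are therefore pairs of near copies and not separate checks.

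CXCL1 (chr4:73869393-73871308), 125676 bases from CXCL8 in the same chemokine cluster, differed by line and not detectably by time in the single-cell sums. It was at 1.59, 0.827, 1.44 and 0.624 CPM in SW620 and at 3.84, 1.67, 2.93 and 2.37 CPM in SW620-TET2CD on the same days. Each library of SW620-TET2CD was above every SW620 library, and the ratio on a given day was between 2.02 and 3.80. The separation rests on 1.67 CPM from 121 UMIs in SW620-TET2CD of day 9 beside 1.59 CPM from 117 UMIs in SW620 of day 6. In the latter 1 cell held 26 of the UMIs, and the gap is within counting error. The log2 fold change between the lines was 1.20 ± 0.16 (adjusted p = 0.00146). For late over early days it was -0.26 ± 0.33 (adjusted p = 0.515).

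CCL20 (chr2:227805739-227817564) followed neither of these. In the single-cell sums it stood highest on day 6 in both lines, at 8.47 CPM in SW620 and 9.54 CPM in SW620-TET2CD. On days 9, 12 and 15 it was at 2.24, 4.31 and 4.03 CPM in SW620 and at 2.73, 2.72 and 1.06 CPM in SW620-TET2CD. Late and early libraries overlapped, and neither the time estimate (log2 -1.12 ± 0.54, adjusted p = 0.0959) nor the line estimate (-0.52 ± 0.30, adjusted p = 0.478) passed. Without SW620 of day 9 the time estimate was -1.55 and passed with an adjusted p of 0.0176. Without SW620-TET2CD of day 6 it was -0.52 (adjusted p = 0.350), and without SW620-TET2CD of day 15 it was -0.75 (0.273). Without SW620 or SW620-TET2CD of day 15 the line estimate was -0.076 and -0.083 (adjusted p = 0.910 and 0.899), and without 1 library of day 6 it was -0.83. Without a filter on low counts both the time and the line estimate passed (-1.17 for time, adjusted p = 2.54e-08, and -0.54 for line, adjusted p = 0.00226). Its counts came from few cells, and the single cell with the most CCL20 UMIs held 5.56% to 41.9% of a library's total, with 83 of 198 UMIs in SW620-TET2CD on day 9 and 74 of 213 in SW620 on day 15. Without that 1 cell in each library the level was 1.58 CPM and 2.63 CPM in these libraries.

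The chemokines were seen in small shares of cells. A CXCL8 UMI was found in 3.17%, 2.16%, 8.96% and 3.66% of SW620 cells on the 4 days and in 3.83%, 3.89%, 10.9% and 7.17% of SW620-TET2CD cells. The exact 95% binomial interval was 8.08% to 9.89% in SW620 and 9.98% to 12.0% in SW620-TET2CD on day 12, and covers counting error only. CXCL1 was found in 0.376% to 2.31% of cells and CCL20 in 0.730% to 4.51%. Shares depend on depth, and after each cell had been thinned to 2000 UMIs, with 18 to 89 shallower cells left out per library, CXCL8 was in 0.705% to 2.86% of cells, highest on day 12 in both lines as before. No cell type that should lack these genes is in the libraries, so a background share from free RNA could not be set. Of cells with a CXCL1 UMI, 15.4% to 39.4% also had a CXCL8 UMI, against 2.06% to 10.5% of the cells without CXCL1, and the first share was the higher in each of the 8 libraries. The cells with a CXCL8 UMI had a CCL20 UMI in 1.59% to 14.4%, against 0.622% to 4.21% of the others.

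Cells with a UMI of any of the chemokines, 3.49% to 14.4% of a library, also carried more of several other members. The split was made within each library, so cells of the same culture were compared, and it gives no test because cells are not replicates. TNFAIP3 was higher in the chemokine-positive cells in 8 of 8 libraries, by 0.35 to 1.40 on the scale of log2 (CPM + 1), and TNFRSF12A in 8 of 8, by 0.14 to 0.73. The positive cells of SW620 on day 9 held 6 TNFAIP3 UMIs, too few to read, and those of the other 7 libraries 14 to 70. BIRC3, NFKBIA and TNFAIP2 were higher in 7 of 8, with differences from -0.15 to 2.36, from -0.10 to 0.72 and from -0.04 to 1.40. Of these, SW620 of day 9 rests on 6 TNFAIP2 and 7 BIRC3 UMIs and SW620 of day 15 on 4 TNFAIP2 UMIs in the positive cells, too few to read. TNFRSF4 was higher in 5 of 8 and TNFRSF21 in 6 of 8, both within -0.44 to 0.45. For TNFRSF4, SW620-TET2CD of day 9 rests on 7 UMIs in the positive cells, also too few to read. The median gene differed by -0.02 to 0.01 in the same split, and TNFAIP3 stood above 95.1% to 99.9% of genes. TNFRSF12A stood above 71.7% to 99.4%, NFKBIA above 31.8% to 99.1%, BIRC3 above 23.7% to 99.96% and TNFAIP2 above 46.8% to 99.9%. Chemokine-positive cells had slightly more UMIs, for example a median of 14002 against 13438 in SW620 on day 6.

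**Figure D3:**
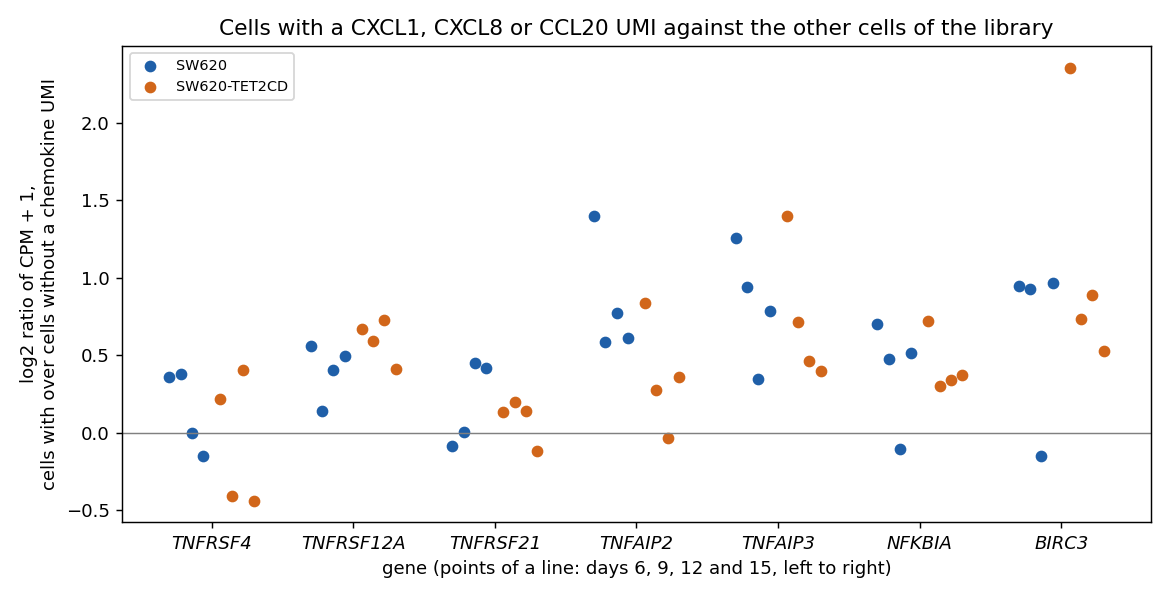
Difference, as a log2 ratio of CPM + 1 (vertical axis), between cells with and without a CXCL1, CXCL8 or CCL20 UMI for the other members (horizontal axis), with 1 point per library in day order for SW620 (blue) and SW620-TET2CD (orange). TNFRSF12A and TNFAIP3 lie above 0 in all 8 libraries, and TNFRSF4 lies on both sides of 0. The TNFAIP3 point of SW620 on day 9 rests on 6 UMIs in the positive cells, too few to read.

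Of the TNF receptors, TNFRSF4 (chr1:1211326-1214153) showed, in the single-cell sums, both a rise with time and a lower level in SW620-TET2CD. It encodes OX40, a costimulatory receptor best known from activated T cells. In SW620 it was at 4.25, 6.38, 18.2 and 16.9 CPM on days 6, 9, 12 and 15, and in SW620-TET2CD at 1.83, 2.33, 8.65 and 8.51 CPM. Late libraries were above all early ones, and on each day the SW620 library was at least 1.98 times the other. The log2 fold change was 1.78 ± 0.16 for late over early days (adjusted p = 1.85e-05) and -1.28 ± 0.11 for SW620-TET2CD over SW620 (adjusted p = 3.83e-05). Both calls held in each of the 8 fits without 1 library. It was found in 4.92%, 4.24%, 17.7% and 10.8% of SW620 cells and in 1.57%, 2.42%, 8.81% and 6.49% of SW620-TET2CD cells, with at most 6 UMIs in a cell. After thinning to 2000 UMIs per cell the shares were 0.904%, 1.39%, 3.74% and 3.28% in SW620 and 0.431%, 0.486%, 1.88% and 1.49% in SW620-TET2CD, with days 6 and 9 of SW620 in the other order.

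The gene next to TNFRSF4, 4733 bases away on chromosome 1, is TNFRSF18 (chr1:1203508-1206592), which encodes the related receptor GITR. It was also lower in SW620-TET2CD, with a mean of 38.4 CPM against 79.1 CPM in SW620 and a log2 fold change of -1.11 ± 0.11 (adjusted p = 0.000126). TNFRSF18 was named by the rule for the other receptors, and its position beside TNFRSF4 was looked up afterwards.

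TNFRSF12A (chr16:3018445-3022383), which encodes Fn14, the receptor of TWEAK, was the most abundant member. It was at 95.04, 85.5, 115.7 and 196.5 CPM in SW620 and at 95.9, 78.3, 100.2 and 123.5 CPM in SW620-TET2CD. All late libraries were above all early ones, yet the spread among late libraries was wide and the estimate of 0.48 ± 0.20 did not pass (adjusted p = 0.0647). It passed without SW620-TET2CD of day 6 (0.60), SW620 of day 12 (0.59) or SW620-TET2CD of day 12 (0.57), and with DESeq2, upper-quartile factors or no filter on low counts (adjusted p 0.0103 to 0.0490 over these 6), and it was 0.20 without SW620 of day 15. The line estimate was -0.35 ± 0.14 (adjusted p = 0.275), and it passed without a filter on low counts (-0.36, adjusted p = 0.0311). Without SW620 or SW620-TET2CD of day 15 it was -0.14 and -0.15 (adjusted p = 0.514 and 0.486). The gene overlaps CLDN6 on the other strand. It was detected in 38.7% to 63.8% of cells.

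TNFRSF21 (chr6:47231532-47309905), which encodes the death receptor DR6, passed neither test. Its 8 libraries lay between 4.96 and 12.4 CPM, lowest on day 12 and highest on day 15 in each line. The time estimate was -0.06 ± 0.25 (adjusted p = 0.860) and the line estimate -0.30 ± 0.13 (adjusted p = 0.327), which was -0.13 and -0.14 without SW620 or SW620-TET2CD of day 15.

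TNFAIP2 (chr14:103121476-103137439) had the widest difference between the lines. It encodes M-Sec, a TNF-induced protein linked to membrane protrusions. SW620 had 2.19, 1.60, 1.12 and 0.568 CPM on days 6, 9, 12 and 15, and SW620-TET2CD had 10.96, 11.1, 5.46 and 4.76 CPM. The lowest SW620-TET2CD library was above the highest SW620 library, and in each line both late libraries were below both early ones. The log2 fold change was 2.49 ± 0.14 between the lines, or 5.62-fold (adjusted p = 1.28e-06), and -1.25 ± 0.19 for late against early days (adjusted p = 0.000344). The time call was lost without the line as a block (-1.26, adjusted p = 0.166). TET2 over the same SW620-TET2CD libraries was at 106.6, 59.5, 40.2 and 41.6 CPM. The late mean of TNFAIP2 was 0.446 times the early mean in SW620 and 0.463 times in SW620-TET2CD. A relation of its course to TET2 was not tested. The gene overlaps LINC00677 on the other strand.

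Within SW620-TET2CD, TNFAIP2 was also higher in the cells that carried a TET2 UMI, 17.2% to 27.9% of a library. This split was added after the data had been seen. The cells with TET2 had 22.2, 24.8, 10.8 and 12.0 CPM of TNFAIP2 on days 6, 9, 12 and 15, and the cells without had 6.14, 6.47, 4.07 and 2.98 CPM. On the scale of log2 (CPM + 1) the difference was 1.22 to 1.79 in 4 of 4 libraries, above 99.1% to 99.7% of genes, while the median gene differed by 0.03 to 0.07. At least 107 UMIs stood behind each of these values. Of the other members, TNFRSF4 was lower in the TET2-positive cells in 4 of 4 libraries (by 0.40 to 1.07, above 0.126% to 3.15% of genes) and CXCL8 in 4 of 4 (by 0.04 to 0.89, above 0.177% to 26.8% of genes). TNFRSF12A differed by 0.01 to 0.34, above 40.5% to 89.4% of genes and below the median gene on day 12. CXCL1 lay on both sides of 0, with differences from -0.58 to 0.58. In SW620, where 1.65% to 4.68% of cells had a TET2 UMI, only 2 to 11 TNFAIP2 UMIs fell in them, too few to read. Cells with a TET2 UMI were deeper in SW620-TET2CD, for example a median of 9694 against 8041.5 UMIs on day 15.

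**Figure D4:**
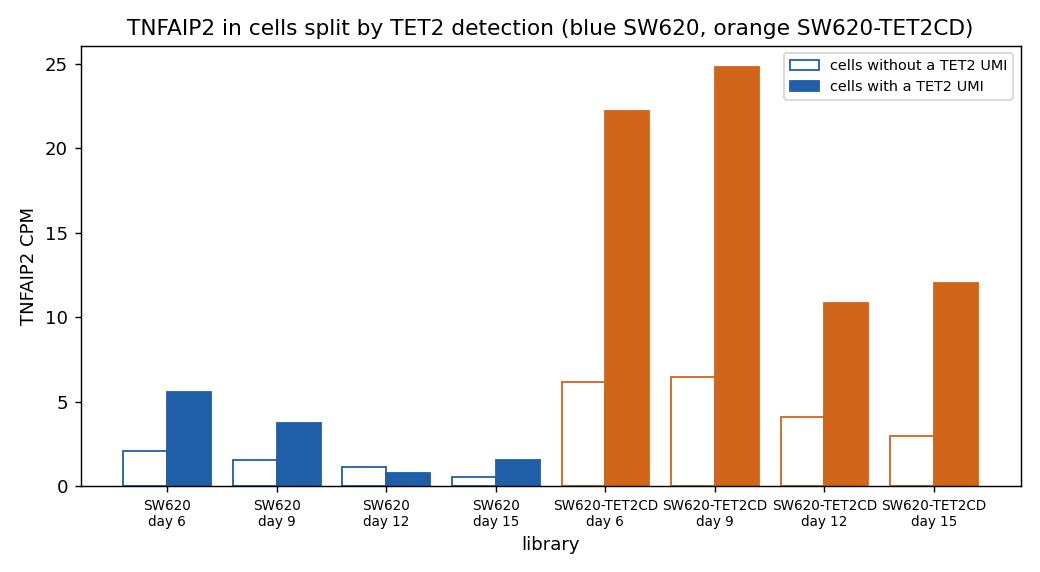
TNFAIP2 level in CPM (vertical axis) in cells without (open bars) and with (filled bars) a TET2 UMI for each library (horizontal axis). In all 4 SW620-TET2CD libraries the filled bar is the taller, from 10.8 to 24.8 CPM against 2.98 to 6.47 CPM, and the filled SW620 bars rest on 2 to 11 UMIs each.

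TNFAIP3 (chr6:137867214-137883314), which encodes A20, rose with time. It was at 1.83, 1.07, 6.25 and 2.40 CPM in SW620 and at 2.40, 1.87, 7.47 and 4.96 CPM in SW620-TET2CD. Day 12 was the highest in both lines, as for CXCL8, and the lowest late library, SW620 of day 15 with 127 UMIs, stood at 2.402 CPM beside 2.399 CPM in the highest early one, SW620-TET2CD of day 6 with 178 UMIs, a gap within counting error. The log2 fold change was 1.43 ± 0.29 for late over early days (adjusted p = 0.00186), and the call held in each of the 8 fits without 1 library. Between the lines it was 0.50 ± 0.14, higher on 4 of 4 days, and did not pass (adjusted p = 0.0732), though it did without a filter on low counts (0.49, adjusted p = 0.0137). WAKMAR2 overlaps it on the other strand.

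NFKBIA (chr14:35401079-35404749), which encodes IkBa, held nearly the same level throughout the single-cell libraries. SW620 had 27.7, 22.8, 26.4 and 22.2 CPM and SW620-TET2CD had 27.8, 23.8, 23.8 and 20.3 CPM. The lines overlapped, and the differences were -0.24 ± 0.13 for time (adjusted p = 0.134) and -0.15 ± 0.10 for line (adjusted p = 0.540). BIRC3 (chr11:102317484-102339403), which encodes cIAP2, was at 1.73, 1.34, 2.48 and 3.82 CPM in SW620 and at 2.98, 1.56, 2.05 and 3.43 CPM in SW620-TET2CD. Day 15 was its highest in each line, but the time estimate of 0.54 ± 0.30 did not pass (adjusted p = 0.149), and the line estimate was 0.04 ± 0.19 (adjusted p = 0.958). Without SW620-TET2CD of day 6 or of day 12 the time estimate for BIRC3 passed, at 0.86 and 0.74 with adjusted p of 0.0243 and 0.0452, while without SW620 of day 15 or of day 9 it was 0.27 and 0.37 (adjusted p = 0.427 and 0.372).

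Whether the change with time differed between the lines was asked with an interaction term. None of the 10 members passed, as against 1 of 17478 genes (0.00572%), and 3 members and 947 genes (5.42%) were under 0.05 before adjustment. DESeq2 called 8 genes in the same comparison. CCL20 had the widest estimate, -1.55 ± 0.37 on the log2 scale (adjusted p = 0.340), and was the member that passed without a filter on low counts (-1.54, adjusted p = 1.17e-05). The late mean was 0.779 times the early mean in SW620 and 0.308 times in SW620-TET2CD, and 0.672 and 0.341 times without the 1 cell with most CCL20 UMIs in each library. BIRC3 (-0.86 ± 0.30) and TNFRSF21 (-0.60 ± 0.21) had adjusted p of 0.720 and 0.717. The fit had 2 residual degrees of freedom. CCL20 passed in 4 of the 8 fits without 1 library, over which its estimate ran from -2.43 to -0.85, the smallest without a library of day 15. With 1 library of day 9 left out CCL20 was at -1.56 and -1.55 and passed, and with 1 of day 12 left out CCL20, TNFRSF12A, TNFRSF21 and BIRC3 passed, in fits with 1 residual degree of freedom that called up to 2279 genes.

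In bulk RNA-seq on day 15, none of the 10 members passed between cells outside and inside the colonies, nor did any of the 17722 genes tested (0.00%). Before adjustment 1068 genes (6.03%) and 1 member, TNFAIP3, were under 0.05, and DESeq2 called 21 genes. In this and the next comparison each fit had 1 residual degree of freedom. TNFAIP3 was at 13.9 TPM (transcripts scaled for length and library total) inside and 8.78 TPM outside in SW620, and at 18.8 and 11.4 TPM in SW620-TET2CD. It was lower outside in both lines, with a log2 fold change of -0.64 ± 0.16 (adjusted p = 0.772). Without a filter on low counts TNFAIP3 (-0.65, adjusted p = 0.0365) and TNFAIP2 (1.16, adjusted p = 0.0408) passed, among 472 genes. With no test, on the scale of log2 (CPM + 1), the TNFAIP2 difference was 1.84 in SW620-TET2CD and 0.083 in SW620. TNFAIP2 was at 1.23 and 1.58 TPM inside and outside in SW620, and at 2.39 and 12.9 TPM in SW620-TET2CD. The wide gap lay in SW620-TET2CD, where TET2 was at 38.1 TPM inside and 124.3 TPM outside. A relation of TNFAIP2 to the TET2 level was not tested, with 1 library per location. CXCL8 was at 10.3 and 11.9 TPM in SW620 and at 28.4 and 18.1 TPM in SW620-TET2CD, so its direction was not shared by the lines.

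Between the lines in bulk, again none of the 10 passed, against 0.412% of genes, while 5 members and 3536 of the 17722 genes were under 0.05 before adjustment. TNFAIP2 had the widest estimate at 2.11 ± 0.50 (adjusted p = 0.128), followed by TNFRSF4 at -1.19 ± 0.45 (0.244), CCL20 at -1.15 ± 0.40 (0.220), CXCL8 at 0.98 ± 0.32 (0.204) and TNFRSF12A at 0.53 ± 0.19 (0.218). DESeq2 called TNFAIP2, with 2.09 (adjusted p = 0.000891). Without a filter on low counts TNFAIP2 (adjusted p = 8.50e-06), CXCL8 (0.00406) and TNFRSF12A (0.0151) passed, among 2239 genes. On the scale of log2 (CPM + 1) and with no test, TNFAIP2 differed between the lines by 2.64 outside the colonies and by 0.89 inside, and CXCL8 by 0.34 outside and 1.46 inside. CCL20 was at 4.10 and 4.56 TPM in SW620 inside and outside and at 2.34 and 1.87 TPM in SW620-TET2CD, from 22 to 55 expected counts. TNFRSF4 was at 2.09 and 2.19 TPM against 1.12 and 0.80 TPM, from 15 to 40 expected counts. CXCL1 was at 1.43 and 0.92 TPM against 1.65 and 2.45 TPM, from 17 to 43.64 expected counts. Its estimate was 0.68 ± 0.44 (adjusted p = 0.458). TNFRSF12A was at 74.7 and 81.9 TPM against 134.4 and 103.9 TPM, the opposite order to that of the single-cell sums of day 15.

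**Figure D5:**
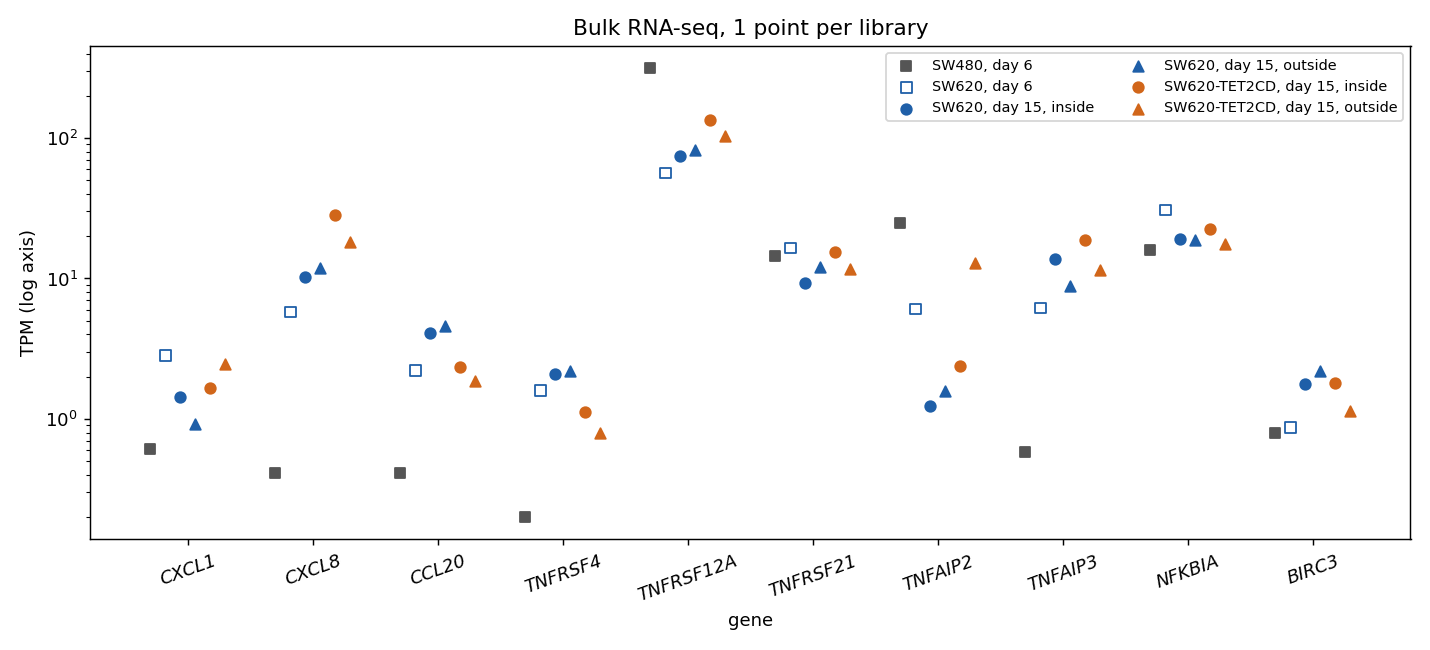
Bulk level in TPM on a log axis (vertical) of each member (horizontal), with 1 point per library: SW480 (grey), SW620 (blue) and SW620-TET2CD (orange), with squares for whole cultures of day 6, circles for cells inside and triangles for cells outside the colonies of day 15. SW480 lies lowest for CXCL8, at 0.41 TPM, and highest for TNFRSF12A and TNFAIP2, at 313.5 and 25.0 TPM.

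The day 6 bulk cultures set SW480 beside SW620, with 1 library each and no test. On the scale of log2 (TPM + 1), 7 of the 9 members with at least 1 TPM in either library (all but BIRC3) differed over 2-fold, against 27.4% of the 17191 genes at that level. Of the members 5 were lower and 2 higher in SW480, and of all genes 11.5% and 15.9%. These shares do not test the members as a group, since they were chosen with earlier results known. CXCL8 was at 0.41 TPM in SW480 and 5.78 TPM in SW620, TNFAIP3 at 0.58 and 6.14 TPM, and CXCL1 at 0.61 and 2.83 TPM. CCL20 was at 0.41 TPM in SW480, from 2 expected counts, and 2.21 TPM in SW620. TNFRSF4 was at 0.20 TPM, from 4 expected counts, and 1.59 TPM. TNFRSF12A and TNFAIP2 were the other way round, at 313.5 against 56.5 TPM and at 25.0 against 6.08 TPM. From day 6 to the inside of day 15 colonies in SW620, TNFAIP3 went from 6.14 to 13.9 TPM and TNFAIP2 from 6.08 to 1.23 TPM, the 2 members past a 2-fold difference on that scale, against 11.4% of genes. From day 6 to the outside of those colonies TNFAIP2, at 1.58 TPM, was the 1 of 10 members past it, against 9.91% of genes, and TNFAIP3 was at 8.78 TPM.

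Of 117 other genes of these systems, 88 could be tested for time, and 36 rose and 10 fell (52.3% called, against 58.0% of all genes). The counts by group that follow stand against 29.4% of all genes called upward and 28.6% downward, and nothing is read from those near these shares. Other TNF receptors accounted for 7 of 16 tested that rose and none that fell, among them TNFRSF6B (log2 2.02), TNFRSF10D (1.41) and TNFRSF10B (1.26), decoy and death receptors of the TRAIL and FAS ligands. TNF family ligands had 3 of 7 that rose, TNFSF9 (2.72), TNFSF12 (1.25), which encodes TWEAK, the ligand of TNFRSF12A, and TNFSF10 (0.51). Other chemokines had 3 of 7, CXCL16 (2.29), CXCL6 (0.80) and CXCL3 (0.66), and chemokine receptors had 1 that rose and 1 that fell of 3. Of other inhibitors and feedback genes, 4 of 12 rose and 2 fell, with BCL3 (2.13), NFKBIZ (1.47) and TAX1BP1 (0.79) among the first and NFKBIB (-1.53) and TNIP2 (-0.53) the second. Of the NF-kB subunits, RELB (0.74) and NFKB2 (0.58) rose and NFKB1 fell, from a mean of 16.2 CPM on early days to 8.77 CPM on late days. Kinases and adaptors were divided, with 9 that rose, such as TRAF5 (0.78), and 5 that fell, such as IRAK1 (-1.46), of 23. Other target genes had 7 that rose, such as LIF (2.13), SDC4 (1.78) and GADD45B (1.24), and 1 that fell, of 15. The median of the 88 was 0.29, beside 0.04 over all genes.

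Between the lines, 3 of the 88 were higher and 5 lower in SW620-TET2CD (9.09%, against 4.21% of all genes). CXCL6, another ligand of the neutrophil receptors, was higher (0.70 ± 0.14, adjusted p = 0.0164), as were the receptors NGFR (1.31) and TNFRSF19 (1.19). TNFRSF18, TNFRSF10B (-0.38), TNFSF9 (-0.75), PLAU (-0.83) and GADD45B (-0.45) were lower. None of the 5 NF-kB subunits, 23 kinases and adaptors and 12 other inhibitors passed. Some partners of the members, picked after their values were seen, were scarce. TNF had 12 UMIs over the 8 libraries, CCR6, the receptor of CCL20, was at 0.0415 to 0.229 CPM, and TNFSF4, the ligand of TNFRSF4, at 0 to 0.216 CPM.

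For each member, 1 other gene had the nearest profile over the 8 libraries, by the root mean square distance of centred log2 (CPM + 1). CXCL8 and TNFAIP3 had the same nearest gene, CCDC110, at distances of 0.21 and 0.20. CCDC110 was at 1.37, 1.18, 3.92 and 2.23 CPM in SW620 on the 4 days and at 1.64, 1.39, 5.001 and 3.33 CPM in SW620-TET2CD, with the same peak on day 12. TNFRSF12A was nearest to RHOC (0.07), NFKBIA to MFF (0.05), TNFRSF21 to BTG3 (0.11), BIRC3 to SHISA5 (0.12), CXCL1 to SPA17 (0.22), TNFRSF4 to PDLIM4 (0.27), TNFAIP2 to ALDH1A2 (0.32) and CCL20 to MRPL39 (0.35). The smaller distances belong to members with little range, and each was the least among 2462 to 13194 candidate genes.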

How the data were processed

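The 8 single-cell libraries were deposited as UMI counts per gene and barcode, which the authors made with Cell Ranger 4.0 from 10x 3′ libraries against GRCh38. For the 6 bulk libraries the authors deposited RSEM expected counts, TPM and FPKM per gene, of which FPKM was not used. The submitters' processing notes name Bowtie and RSEM, without versions, and list a mouse build beside the human one, although the gene identifiers of the bulk tables are human, so their exact annotation is uncertain. Columns of the authors' own comparisons were not part of these files.

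Cells were kept within the study's limits (200 to 4500 genes, 1000 to 20000 UMIs, at most 10% mitochondrial UMIs), counts were summed per library, and doublets were not called. Sums and rounded expected counts were tested with edgeR 4.0.16 (filterByExpr by the factor compared, TMM, quasi-likelihood) in R 4.3.3, with DESeq2 1.42.0 as an alternative and Benjamini-Hochberg adjustment at 0.05. The SE given with an edgeR estimate is the size of the log2 fold change divided by the square root of the F statistic. Late and early days were compared with the line as a block, and the lines with the day or location as a block. The tests were first run on simulated counts. Ratios within libraries used a pseudocount of 1. Without more than 1 library per condition, counting error is the only precision a single value has. Python 3.11.15 with pandas 2.3.3 and scipy 1.17.1 did the rest. Gene positions are from GENCODE of GRCh38, and promoters from RefSeq (GRCh38.p14). The members, the gene lists and the tests were chosen with earlier results of these data known. In each comparison all 10 members were tested, though not every estimate is printed for the interaction and the bulk comparisons. Of each other list, up to 3 genes per direction were named, those past the threshold with the widest change and a mean of at least 1 CPM. For each member 1 gene of nearest profile was named, with a range of at least 50% of the member's. The alternatives were other normalization factors, no filter on low counts, no block, other limits on cells, a pseudocount of 0.1 and each library left out.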

Additional observations from a re-analysis of the deposited data

How the results depend on the processing

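Late over early days, the calls of CXCL8, TNFRSF4 and TNFAIP3 held under each alternative and without each library, and that of TNFAIP2 under all but the fit without the line as a block. Each fit without 1 library kept the other library of that day, so no whole day was left out. With upper-quartile factors the median of all genes moved from 0.04 to 0.21, the split of calls from 4861 higher and 4726 lower to 6250 and 3636, and TNFRSF21 to 0.11, and on that scale a change is read against 0.21. Between the lines in single-cell sums, 696 genes were called, against 1489 without a filter on low counts, 46 without the day block and 416 to 680 without 1 library. The calls of CXCL1, TNFRSF4 and TNFAIP2 held under all of these alternatives but the fit without the day block. BIRC3 turned to -0.018, -0.053, -0.00098 and -0.020 without the day block, with every barcode, without upper limits and with the mitochondrial limit of 20%, and lay from -0.22 to 0.23 without 1 library. CXCL1 over time lay from -0.50 to 0.028 and TNFRSF21 from -0.37 to 0.14 without 1 library.

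For the interaction, 1 gene was called, against 8 with DESeq2, 103 without the filter, 0 without the day block, 3 with every barcode, 3 without upper limits, 0 with the limit of 20% and 9 to 2279 without 1 library. CXCL8 turned to 0.033 with upper-quartile factors and 0.0050 without the filter. TNFAIP2 turned to 0.027, 0.0018, 0.21, 0.16 and 0.11 with upper-quartile factors, without the filter, with every barcode, without upper limits and with the limit of 20%. CXCL1 turned to -0.0089 with every barcode, and TNFAIP3 to 0.013 with every barcode and 0.0084 with the limit of 20%. Without 1 library the interaction lay from -2.43 to -0.85 for CCL20, from -0.13 to 0.48 for CXCL1, from -0.26 to 0.24 for CXCL8, from -0.24 to 0.26 for TNFAIP2 and from -0.29 to 0.21 for TNFAIP3.

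Between outside and inside, 0 genes were called, 21 with DESeq2 and 472 without the filter. BIRC3 turned to -0.0032 with DESeq2 and -0.0086 without the filter, and TNFRSF4 to 0.083 without the line block. Between the lines in bulk, 73 genes were called, against 709 with DESeq2, 178 with upper-quartile factors, 2239 without the filter and 8 without the location block. Without 1 bulk library only the difference within the other line or location remains, on the scale of log2 (CPM + 1) and with no test. Outside over inside it lay from -0.30 to 0.19 for CXCL1, -0.89 to 0.23 for CXCL8, -0.29 to 0.13 for CCL20, -0.21 to 0.21 for TNFRSF4, -0.49 to 0.19 for TNFRSF12A, -0.49 to 0.38 for TNFRSF21, 0.083 to 1.84 for TNFAIP2, -0.30 to 0.00061 for NFKBIA and -0.31 to 0.30 for BIRC3. Between the lines it lay from 0.12 to 0.60 for CXCL1, 0.34 to 1.46 for CXCL8, -0.91 to -0.49 for CCL20, -0.82 to -0.40 for TNFRSF4, 0.17 to 0.85 for TNFRSF12A, -0.17 to 0.70 for TNFRSF21, 0.89 to 2.64 for TNFAIP2, -0.014 to 0.38 for TNFAIP3, -0.073 to 0.23 for NFKBIA and -0.56 to 0.045 for BIRC3. Adding 1 draws low levels toward 0, and the ranges of CCL20 and TNFRSF4 do not hold their fitted estimates of -1.15 and -1.19. With a pseudocount of 0.1 on TPM, CCL20 differed by -0.78 inside and -1.24 outside, and TNFRSF4 by -0.84 and -1.35.

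The causes of these movements were not tested. The labels give no replicate numbers to pair libraries by, and the lines were paired by day or location and the locations by line, as blocks. Depth limits the members of few UMIs, above all TNFAIP2 and CXCL1 in SW620 on day 15, and shares of cells after thinning were lower by construction.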
